A study of Mus musculus with 31 samples.

Results

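Transcription factors and cofactors of the hemogenic transition, the step in which endothelial or hemangioblast cells give rise to blood, were followed by RNA sequencing through a mouse culture series. They were chosen by name, with earlier results of these data known. They are Runx1, Cbfb, Gfi1, Gfi1b, Myb, Lyl1, Hhex, Ikzf1, Cbfa2t3 and Ldb1, that is 10 of the 20314 gene rows in the deposited tables. The series holds 31 libraries in 9 groups. Its centre is the expandable hemangioblast (eHB), a cultured progenitor grown with doxycycline and carrying ectopic regulators, from which endothelial and blood progeny were made.

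Embryonic stem (ES) cells of lines RB2, RB3 and RB4 were kept in N2B27 medium with CHIR99021, PD0325901 and LIF (n = 3). The same lines gave Kdr-positive mesoderm, sorted after 4 days with Activin A, CHIR99021, BMP4 and FGF2 (n = 3). There were 5 eHB lines. The origin was fetal liver for FL4 and FL10, embryonic fibroblasts for M5, and ES cells for RB4.6.9 and RB3.6.5. All 5 were grown with FGF2 and doxycycline at 2 µg/mL. The ES-derived pair also received VEGF, 8-Br-cAMP, SB431542 and BMP4, so origin and medium cannot be told apart. Each line gave 1 library per stage. Endothelial progeny were collected unsorted after 3 days with VEGF, 8-Br-cAMP, SB431542, BMP4 and FGF2 (n = 5). Blood progeny were grown with CHIR99021, SCF, IL-3 and Flt3L in 1.5% oxygen and sorted as VE-cadherin-positive, CD45-negative cells on day 2 (n = 5) or VE-cadherin-positive, CD45-positive cells on day 3 (n = 5). No doxycycline is listed for the endothelial or blood cultures. Uncultured references were E14.5 hematopoietic stem cells (HSC, n = 1), sorted as positive for CD45, CD201 and CD150 and negative for CD48, and E11.5 endothelium positive for VE-cadherin and Pecam1 from yolk sac (n = 2) and from the embryo (n = 2). The labels do not say whether the paired primary libraries came from separate animals, so p-values measure the spread between these samples. The tables give ectopic regulators rows of their own, among them Tal1, Lmo2 and Gata2, and none of the 10 genes has such a row.

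Runx1 binds DNA as a heterodimer with Cbfb, which does not bind DNA itself, and is required for blood cells to emerge from hemogenic endothelium. Gfi1 and Gfi1b are closely related zinc-finger repressors induced by Runx1 that recruit the CoREST corepressor, with the demethylase Kdm1a (LSD1), and switch off endothelial genes. Lyl1 is a basic helix-loop-helix relative of Tal1, and both join Lmo2, Ldb1 and Gata factors in a multiprotein complex that Cbfa2t3 (Eto2) also binds. Myb sustains definitive progenitors, Hhex is a homeodomain factor of early blood and endothelium, and Ikzf1 (Ikaros) is a zinc-finger factor of lymphoid and early blood cells.

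Total expected counts ran from 9424412 in the day 3 blood library of RB3.6.5 to 79497758 in the HSC library, and no 2 libraries of a group were duplicates. Levels below are TPM, a measure of transcript abundance, which are scaled for transcript length and can be set side by side between genes. Sorting markers followed the labels: Ptprc (CD45) lay at 0.031 to 2.75 TPM in day 2 blood and 16.4 to 101.6 TPM in day 3 blood. Cdh5 (VE-cadherin), by contrast, lay at 2554 to 3102 TPM in the endothelial cultures but only 12.7 to 384.6 TPM in day 2 blood and 17.4 to 101.7 TPM in day 3 blood. Kdr was at 54.2 to 95.9 TPM in mesoderm. Some blood libraries stood apart. Summed TPM of 11 erythroid markers was 61945 for M5 and 61553 for FL4 on day 2 against 2722 to 6181 in the other 3 lines, and 14767 for RB3.6.5 on day 3 against 401.2 to 2069 in the other 4. Summed TPM of 11 megakaryocyte markers was 21802 for M5 on day 2 against 695.0 to 3892 in the rest, and 13832 for RB3.6.5 on day 3. The day 3 library of M5 stood apart for other lineages: 8 neutrophil markers summed to 27320 TPM against 1392 to 3431 in the other 4 lines, 7 mast cell markers to 616.8 against 70.7 to 155.4, and 10 macrophage markers to 419.6 against 104.5 to 144. That library was also the lowest of its group for Gfi1b, Lyl1 and Ldb1. The part of these cells in the results below was not tested. In these bulk samples, fewer cells of a type and less RNA per cell cannot be told apart.

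The 10 genes did not move as a block, as the heat map of levels shows. Runx1, Gfi1b, Lyl1 and Cbfa2t3 had their highest group mean in day 2 or day 3 blood. Gfi1, Myb, Hhex, Ikzf1 and Cbfb had theirs in HSC, and Ldb1 had its own in embryo endothelium. Gfi1 was below 0.3 TPM in each ES, mesoderm, eHB and endothelial library, and Gfi1b, Lyl1, Ikzf1 and Cbfa2t3 were each below 0.5 TPM in all 6 ES and mesoderm libraries. Cbfb and Ldb1 were above 7 TPM and 110 TPM in all 31 libraries.

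**Figure D1:**
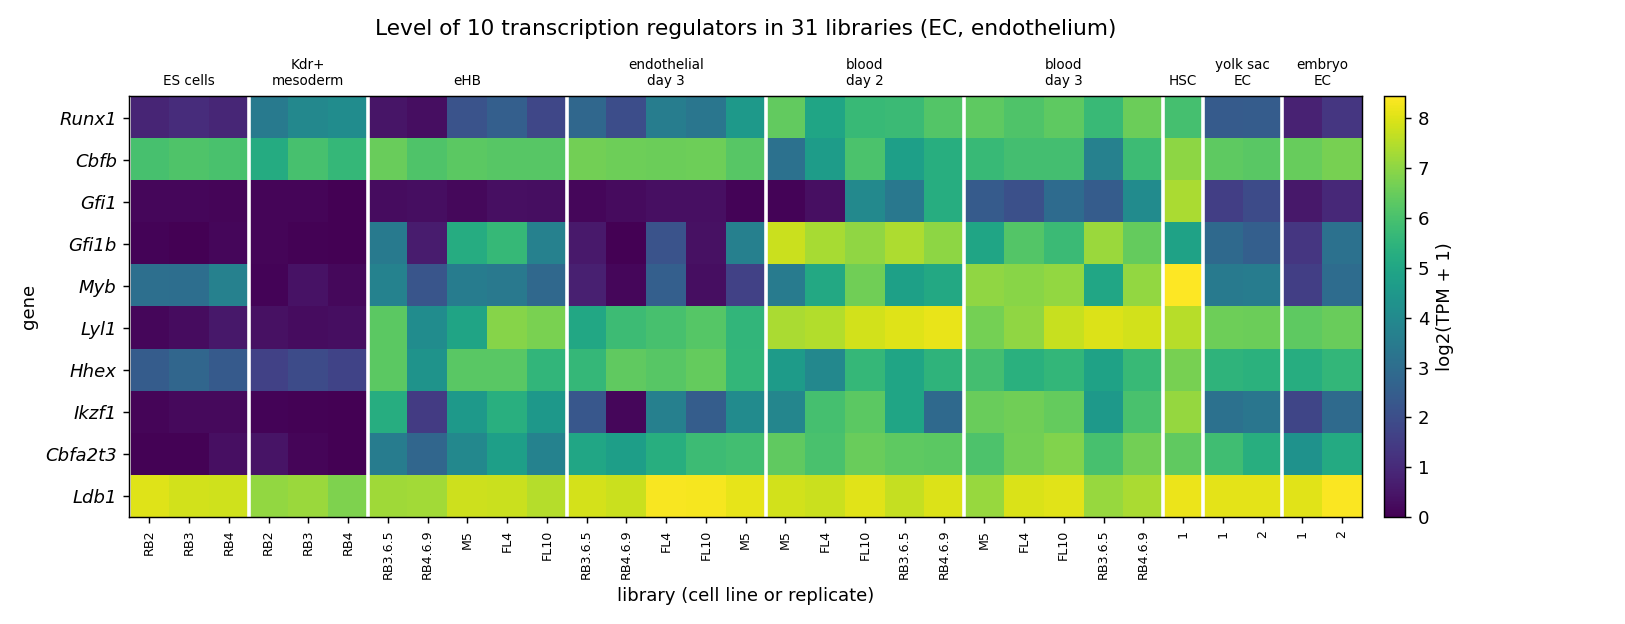
Heat map of the 10 genes (rows) in the 31 libraries (columns, grouped by stage and labelled by line or replicate), coloured by log2(TPM + 1). Cbfb and Ldb1 are present throughout, Gfi1 is dark until the blood stages and brightest in HSC, and Gfi1b, Lyl1, Ikzf1 and Cbfa2t3 are near 0 in ES cells and mesoderm.

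Differences were tested over all genes with edgeR's quasi-likelihood test on rounded expected counts, with Benjamini-Hochberg adjustment and a threshold of 0.05. Fold changes are log2 with their standard error (SE). Most contrasts called a large share of all genes, so each count of the 10 genes stands beside that share. From ES cells to mesoderm 79.1% of tested genes were called. Of the 5 listed genes tested there, Runx1 rose and Myb, Hhex and Ldb1 fell. From mesoderm to eHB 46.6% were called. FL4, FL10 and M5 did not come from ES cells, so this contrast is between separate cultures and not a course within a line. Here Gfi1b, Myb, Lyl1, Hhex, Ikzf1 and Cbfa2t3 rose and Runx1 fell, 7 of the 9 genes tested. Gfi1b, Myb, Lyl1, Ikzf1 and Cbfa2t3 lay near 0 in mesoderm. They passed the filter on low counts only through eHB and could hardly be called lower. From eHB to endothelium 70.0% were called, against 5 of 9: Runx1, Cbfb, Cbfa2t3 and Ldb1 rose and Myb fell. These groups share their lines. With the line as a block edgeR lost Cbfb (adjusted p = 0.0607) and called Gfi1b (0.00215) and Ikzf1 (0.00653) lower. From eHB to day 2 blood 54.1% were called, and Runx1, Gfi1b, Myb, Lyl1, Cbfa2t3 and Ldb1 rose, 6 of 9. Blocking on the line there, edgeR also called Ikzf1 higher (adjusted p = 0.0198). From day 2 to day 3 blood 10.2% were called and none of the 10 genes passed with edgeR, 3 of them having an unadjusted p under 0.05 and DESeq2 calling 1. Day 3 blood against day 3 endothelium gave 61.3% of all genes and 7 of the 10, all higher in blood: Runx1, Gfi1, Gfi1b, Myb, Lyl1, Ikzf1 and Cbfa2t3. Gfi1 lay near 0 in endothelium and passed that filter only through blood. Day 2 blood against endothelium gave 64.4% and 7 of 9, with Cbfb lower and Runx1, Gfi1b, Myb, Lyl1, Ikzf1 and Cbfa2t3 higher. The shares lay above the background in some contrasts and below it in others. With so few genes, nothing is read from these counts about the 10 genes as a set. Without the erythroid-rich day 2 libraries of M5 and FL4, a choice made after seeing the data, the 6 genes called against eHB passed again. Against endothelium 6 of the 7 passed again and Ikzf1 did not. Gfi1 is left out of both counts, since the libraries removed are the ones in which it was low.

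Several contrasts share libraries. Day 2 and day 3 blood were both set against the same endothelial libraries, and endothelium and day 2 blood against the same eHB libraries. Contrasts across the start of blood also depend on scaling. The median gene moved by -0.56 on the log2(TPM + 1) scale from eHB to day 2 blood against 0.01 in the edgeR fit, and among called genes the share that was higher went from 52.7% to 22.3%. For day 3 blood against endothelium the median on the TPM scale was -0.34 and the share higher went from 50.7% to 32.1%. For day 2 blood against endothelium these were -0.43 and 51.0% to 29.2%. The median on the TPM scale was -0.29 from ES cells to mesoderm, where the share higher went from 49.4% to 37.2%, and 0.27 from mesoderm to eHB, where it went from 50.4% to 67.9%.

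**Figure D2:**
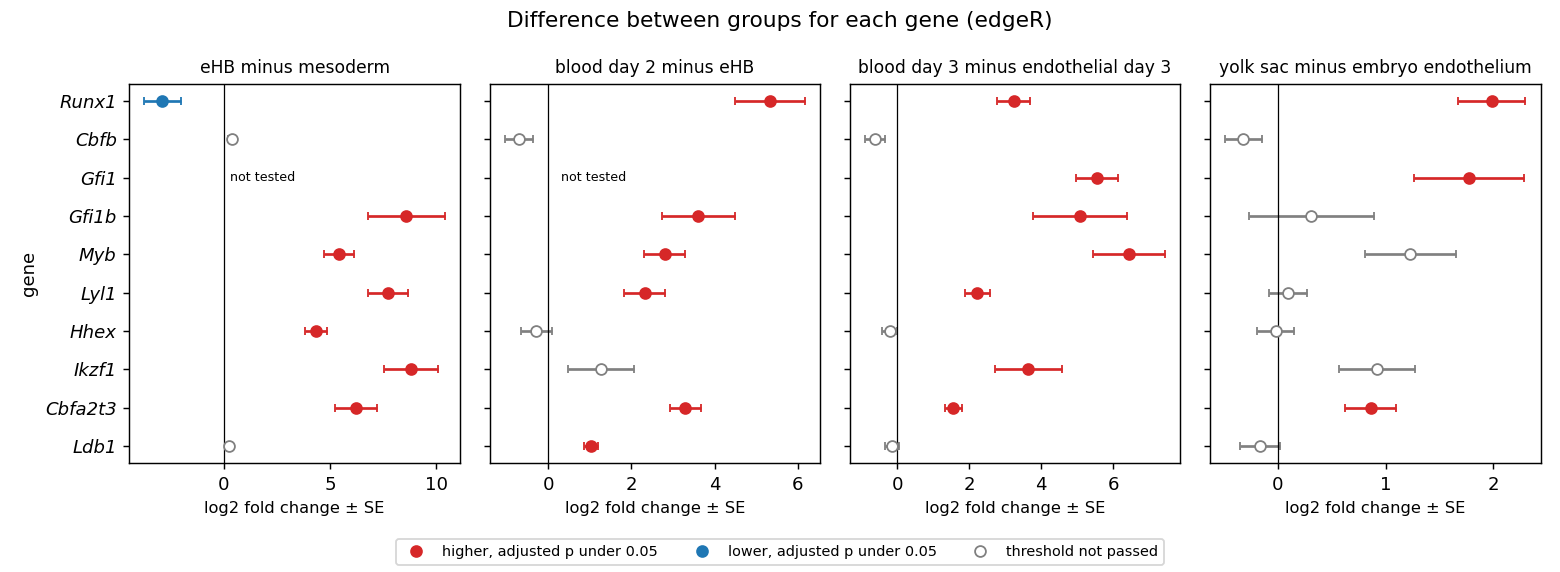
Log2 fold change (point) and SE (bar) of each of the 10 genes in 4 contrasts: eHB against mesoderm, day 2 blood against eHB, day 3 blood against day 3 endothelium, and yolk sac against embryo endothelium. Runx1 lies below 0 in the first panel (-2.90) and above 0 in the other 3 (5.33, 3.24 and 1.98).

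Runx1 (ENSMUSG00000022952, GRCm38 chromosome 16, 92601466 to 92826149, minus strand) was higher in mesoderm than in ES cells, low in eHB and high in blood. It is transcribed from a distal and a proximal promoter, and RefSeq gives a window of 250 bases before to 50 bases after the start for both. The pair is shown because Runx1 levels set the blood libraries and HSC apart from all other libraries and because one window holds letters of the motif its own protein binds. Capitals mark matches on either strand to 3 motifs. They are the RUNX letters TGTGGT with ACCACA as reverse complement, the ETS letters AGGAAG with CTTCCT as reverse complement, and the letters AATCAC, the core that Gfi1 and Gfi1b bind, with GTGATT as reverse complement. The distal window is chr16:92826025-92826324 and the proximal one chr16:92697280-92697579, both on the minus strand of GRCm38.p6.
Runx1 distal: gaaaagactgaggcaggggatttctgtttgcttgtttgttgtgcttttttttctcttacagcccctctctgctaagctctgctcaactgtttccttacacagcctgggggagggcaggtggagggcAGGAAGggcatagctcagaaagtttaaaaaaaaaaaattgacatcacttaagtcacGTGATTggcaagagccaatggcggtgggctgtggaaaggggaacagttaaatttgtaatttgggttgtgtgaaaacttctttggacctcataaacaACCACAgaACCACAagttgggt
Runx1 proximal: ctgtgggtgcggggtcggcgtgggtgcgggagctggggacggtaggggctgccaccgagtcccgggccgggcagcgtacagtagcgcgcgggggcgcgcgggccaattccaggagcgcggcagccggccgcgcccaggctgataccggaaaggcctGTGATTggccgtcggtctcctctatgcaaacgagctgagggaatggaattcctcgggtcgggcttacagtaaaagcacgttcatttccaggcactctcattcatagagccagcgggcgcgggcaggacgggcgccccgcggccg
The distal window held ACCACA at 28 and at 36 bases after the start, AGGAAG at position -124 from it and GTGATT at position -68. The proximal window held GTGATT at position -94 from its start. RUNX letters occur in 16.8% of all 32851 mouse windows of this length, ETS letters in 35.4% and Gfi letters in 10.4%. Of the 16 windows of the 10 genes, the distal Runx1 window alone held RUNX letters, both Runx1 windows alone held Gfi letters, and 7 held ETS letters. GATA letters (AGATAA, reverse complement TTATCT), found in 11.2% of all windows, were in 1 window of Ldb1, and E-box letters (CAGATG, reverse complement CATCTG), found in 17.2%, were in 1 window each of Cbfa2t3 and Myb. No overlap between matches was found in the printed pair. These are letter matches, and the gene-level counts do not separate transcripts from the 2 starts.

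Runx1 stood at 0.816, 1.11 and 0.858 TPM in the ES libraries RB2, RB3 and RB4 and at 9.81, 14.4 and 16.3 TPM in their mesoderm. The groups did not overlap, and Runx1 rose by a log2 fold change of 4.19 ± 0.22 (SE; edgeR adjusted p = 3.16e-07). In eHB it was 0.406 TPM in RB3.6.5, 0.243 in RB4.6.9, 3.49 in M5, 4.83 in FL4 and 2.49 in FL10. All 5 eHB libraries were below all 3 mesoderm libraries, and the log2 change was -2.90 ± 0.85 (SE; edgeR adjusted p = 0.0234). Without the mesoderm library of RB3 or of RB4 the adjusted p was 0.0567 and 0.0725.

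Endothelial progeny held 6.01 TPM of Runx1 in RB3.6.5, 2.97 in RB4.6.9, 10.9 in FL4, 8.99 in FL10 and 22 in M5. Each line lay above its own eHB culture, 5 of 5, although the ranges overlapped between lines. The log2 change was 2.16 ± 0.83 (SE; edgeR adjusted p = 0.0387), and it lost the call in 5 of 10 fits that left out 1 library (adjusted p 0.0524 to 0.0988): eHB RB3.6.5 or FL10, or endothelial FL4, FL10 or M5. The endothelial M5 library, highest for Runx1, also had the highest erythroid marker sum of its group, 2299 TPM against 40.6 to 212 in the other 4. Its part in the Runx1 value was not tested.

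Day 2 blood held 84.3 TPM of Runx1 in M5, 30.4 in FL4, 50.9 in FL10, 52.3 in RB3.6.5 and 72.1 in RB4.6.9. Every one of these lay above every eHB and every endothelial library. Runx1 rose by 5.33 ± 0.84 from eHB (SE; edgeR adjusted p = 0.000744) and by 3.07 ± 0.55 over endothelium (SE; edgeR adjusted p = 0.000768). Day 3 blood held 80.2 TPM in M5, 68.6 in FL4, 80.9 in FL10, 51.5 in RB3.6.5 and 92.5 in RB4.6.9, again above all endothelial libraries, with a log2 difference of 3.24 ± 0.46 (SE; edgeR adjusted p = 0.000191). Between the 2 days 3 lines went up and 2 went down (log2 change 0.21, edgeR adjusted p = 0.697). In the order of group means, day 3 blood (74.8 TPM), HSC (61.1) and day 2 blood (58.0) had overlapping ranges and stood apart from mesoderm (13.5). Below mesoderm, each neighbour overlapped the next: endothelium 10.2, yolk sac 4.41, eHB 2.29, embryo endothelium 1.13 and ES cells 0.928 TPM.

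**Figure D3:**
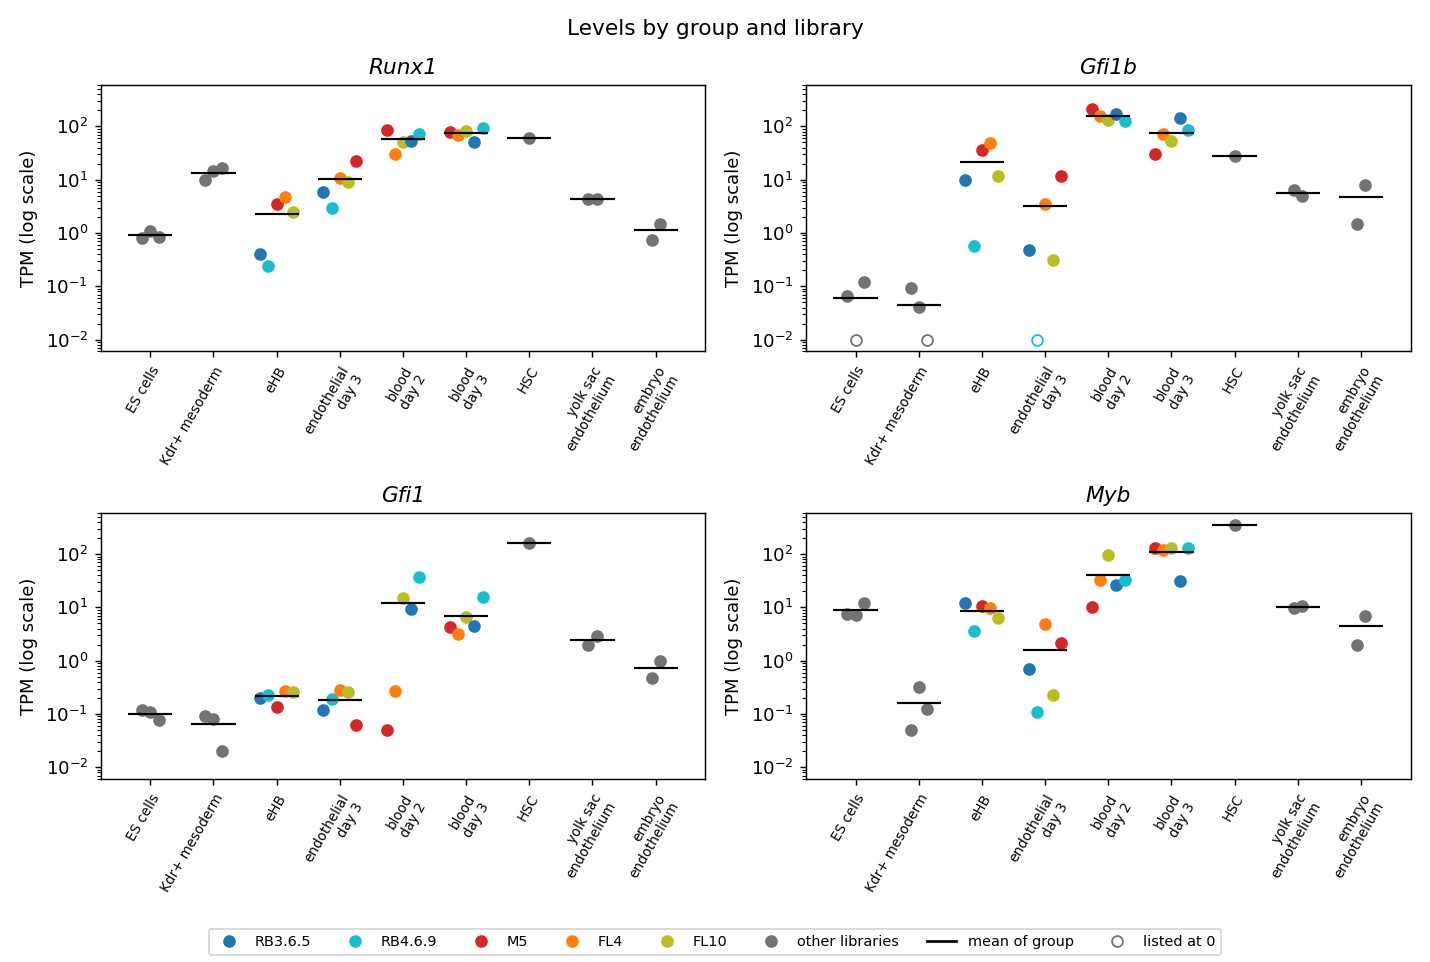
TPM of Runx1, Gfi1b, Gfi1 and Myb by group on a log axis, 1 dot per library, a bar at the group mean and open circles at the lower edge for libraries listed at 0. Runx1 is lower in eHB (2.29 TPM on average) than in mesoderm (13.5) and is at 30.4 to 92.5 TPM in the 10 blood libraries, while Gfi1 in day 2 blood spans 0.051 to 36.9 TPM.

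Which of the 3 Runx genes had the highest level in eHB differed by line. Runx1 made up between 4.06% and 94.3% of the summed Runx1, Runx2 and Runx3 TPM there, with a median of 26.9%, and Runx3 ranged from 0.116 to 6.71 TPM. In endothelium Runx1 was 86.8% to 97.8% of the sum, in day 2 blood 82.8% to 99.7% and in day 3 blood 64.6% to 96.2%. Runx3, a factor of T cells and other lineages, was 8.30 ± 1.13 log2 units higher in day 3 blood than in endothelium (SE; edgeR adjusted p = 0.000125). Its levels were 0.575 to 34.5 TPM in that blood and 0 to 0.176 TPM in endothelium. Runx2, best known from bone, rose by 4.51 ± 0.60 from eHB to day 2 blood (SE; edgeR adjusted p = 0.000303). It lay at 0.053 to 0.095 TPM in eHB and 0.193 to 2.67 TPM in day 2 blood, so both folds start near 0.

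Cbfb (ENSMUSG00000031885, GRCm38 chromosome 8, 105170674 to 105217989, plus strand), the partner of all 3 Runx proteins, was lower in day 2 blood than in endothelium. It lay at 68.3 to 90.9 TPM in eHB and at 92.8 to 97.8 TPM in 4 endothelial libraries, with M5 at 74.3. In day 2 blood it was 7.88 TPM in M5, 24.2 in FL4, 64.8 in FL10, 25.9 in RB3.6.5 and 38.3 in RB4.6.9. All 5 blood libraries were below all eHB and endothelial libraries. Cbfb fell by 1.05 ± 0.34 against endothelium on the log2 scale (SE; edgeR adjusted p = 0.0206). Against eHB the value was -0.71 ± 0.34 (SE; edgeR adjusted p = 0.0982). Limma on log2(TPM + 1), a scale where the median gene moved by -0.56, gave -1.51 (adjusted p = 0.00998). Without the day 2 library of FL10 edgeR gave -1.05 (adjusted p = 0.0137).

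In day 3 blood Cbfb was 50.3 TPM in M5, 59.9 in FL4, 59.0 in FL10, 12.1 in RB3.6.5 and 54.6 in RB4.6.9. The lowest value is that of the library with the highest erythroid sum of its group, as the lowest on day 2, M5, was of its own. Both libraries also had the lowest total counts of their groups, 9424412 and 13236697. On day 2, FL4, also high in erythroid markers, and RB3.6.5, not high in them that day, held similar Cbfb levels (24.2 and 25.9 TPM). The part of these cells and of depth was not tested. With edgeR the day 3 difference from endothelium was -0.62 ± 0.29 (SE; adjusted p = 0.0832), and without RB3.6.5 it was -0.40 (adjusted p = 0.00528). From eHB to endothelium Cbfb rose by 0.26 ± 0.10 (SE; edgeR adjusted p = 0.0341), a call lost in 7 of 10 fits that left out 1 library (adjusted p 0.057 to 0.0765, leaving out eHB RB4.6.9, FL4 or FL10 or endothelial RB3.6.5, RB4.6.9, FL4 or FL10) and when the line was a block (0.26, adjusted p = 0.0607). It was also lost when no filter on low counts was used (adjusted p = 0.0519), in limma with a pseudocount of 1 or 0.1 (0.0754 and 0.0755) and with all groups in one fit (0.452).

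The ratio of Runx1 to Cbfb TPM set these opposite differences side by side. Its median was 0.0136 in ES cells, 0.274 in mesoderm, 0.0331 in eHB and 0.0948 in endothelium. In blood it was 1.88 on day 2 (0.786 to 10.7) and 1.60 on day 3 (1.15 to 4.26), so Runx1 transcripts outnumbered Cbfb transcripts in 4 of 5 and in 5 of 5 libraries. The ratio was 0.482 in HSC, where Cbfb was at 126.9 TPM, its highest level of the series.

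Gfi1b (ENSMUSG00000026815, GRCm38 chromosome 2, 28609450 to 28621982, minus strand), a repressor needed for red cells and platelets, was already on in eHB and peaked in day 2 blood. ES and mesoderm libraries held 0.12 TPM or less, and 2 of the 6 were listed at 0. The eHB lines held 9.85 TPM in RB3.6.5, 0.573 in RB4.6.9, 36.2 in M5, 49.4 in FL4 and 11.9 in FL10. All were above mesoderm, and the rise was 8.60 ± 1.81 on the log2 scale (SE; edgeR adjusted p = 0.00528). There were 2532 counts over the eHB libraries against 3 over mesoderm, a ratio of 433.7 once scaled for total counts. Its exact 95% interval of 148.2 to 2104 covers counting alone and leaves out the spread between lines. The ES-derived RB4.6.9 was far below the other 4 lines.

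Endothelial progeny held 0.490 TPM of Gfi1b in RB3.6.5, 3.44 in FL4, 0.312 in FL10 and 11.9 in M5, and RB4.6.9 was listed at 0. Every line was lower than its own eHB culture, 5 of 5, but the ranges overlapped. The edgeR value was -2.73 ± 1.45 (SE; adjusted p = 0.116). Blocking on the line it was -3.80 (adjusted p = 0.00215), and without the endothelial M5 library -4.39 (adjusted p = 0.0298).

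Day 2 blood held 214.6 TPM of Gfi1b in M5, 159.5 in FL4, 129.3 in FL10, 168.8 in RB3.6.5 and 127.9 in RB4.6.9, all above every other group but for day 3 blood. Gfi1b rose from eHB by 3.61 ± 0.88 on the log2 scale (SE; edgeR adjusted p = 0.00653). Without the day 2 libraries of M5 and FL4, those high in erythroid markers, the remaining 3 lay at 127.9 to 168.8 TPM and the rise was 3.18 (edgeR adjusted p = 0.0285). Day 3 blood held 30.2 TPM in M5, 71.4 in FL4, 52.5 in FL10, 142.1 in RB3.6.5 and 86.4 in RB4.6.9. Each line was lower than on day 2, 5 of 5, with a log2 value of -1.14 ± 0.47 (SE; edgeR adjusted p = 0.154). Without the day 3 library of RB3.6.5, which stood apart for erythroid and megakaryocyte markers, Gfi1b was at -1.71 (adjusted p = 0.0175), and without the day 2 libraries of M5 and FL4 at -0.66 (adjusted p = 0.541). Without the day 3 library of M5, high in neutrophil markers and lowest for Gfi1b, it was -0.93 (adjusted p = 0.278).

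Gfi1 (ENSMUSG00000029275, GRCm38 chromosome 5, 107716657 to 107726036, minus strand), the relative linked to stem cells and neutrophils, came on later and not in all lines at once. It lay at 0.137 to 0.274 TPM in eHB and 0.063 to 0.280 TPM in endothelium. In day 2 blood it was 0.051 TPM in M5 and 0.273 in FL4 but 14.8 in FL10, 9.43 in RB3.6.5 and 36.9 in RB4.6.9. M5 and FL4, the lines still at or below the eHB levels, were those with erythroid marker sums of 61945 and 61553 TPM against 2722 to 6181 in the other 3. The part of those cells was not tested. Gfi1 did not pass edgeR's filter on low counts in that contrast, and without the filter the log2 change was 6.23 ± 1.34 (SE; adjusted p = 0.00404), with 3 of 5 lines higher.

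By day 3 Gfi1 was 4.35 TPM in M5, 3.21 in FL4, 6.72 in FL10, 4.43 in RB3.6.5 and 15.8 in RB4.6.9. All 5 were above all endothelial libraries, and Gfi1 was 5.56 ± 0.59 log2 units higher in day 3 blood (SE; edgeR adjusted p = 2.56e-05). From day 2 to day 3 Gfi1 moved in both directions: M5 and FL4 went up and the other 3 lines went down. The edgeR value was -0.77 ± 1.11 (SE; adjusted p = 0.701), and its sign turned on the TPM scale (0.18) and with the line as a block (0.48).

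Gfi1b remained the main transcript of the pair in all cultured blood. Gfi1 was 0.0238% of the summed Gfi1 and Gfi1b TPM in M5 on day 2, 0.171% in FL4, 10.2% in FL10, 5.29% in RB3.6.5 and 22.4% in RB4.6.9. On day 3 its share was 3.02% to 15.4%. In HSC it was 85.3%, with Gfi1 at 163.1 and Gfi1b at 28.1 TPM, above the share in any cultured blood library.

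**Figure D4:**
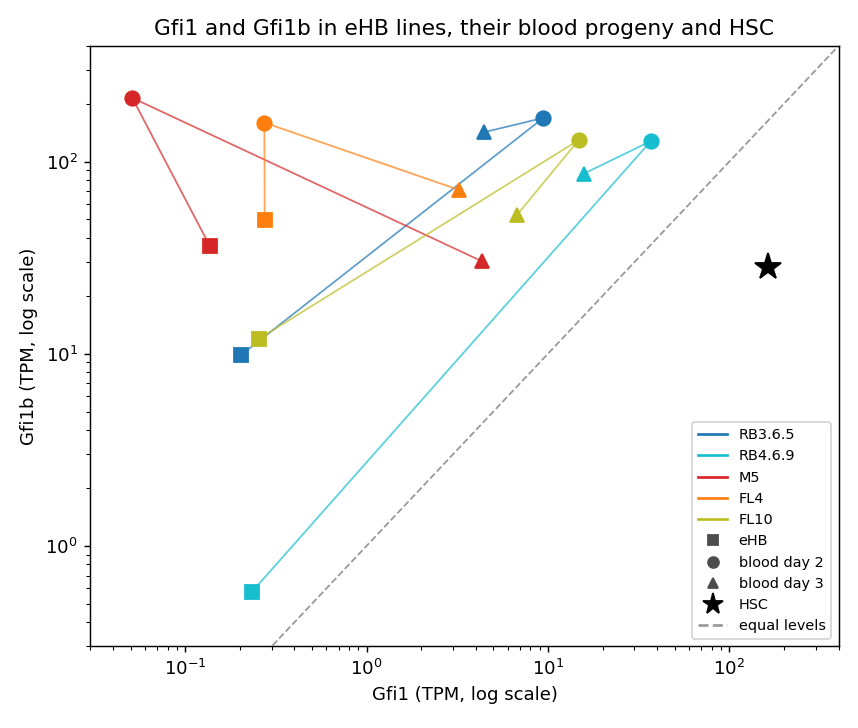
Gfi1 TPM against Gfi1b TPM on log axes for each line from eHB through day 2 to day 3 blood, joined by lines, with the HSC library as a star and a line of equal TPM. M5 and FL4 move along Gfi1b first (Gfi1 0.051 and 0.273 TPM on day 2), the other 3 lines move along both, and only the HSC star lies on the Gfi1 side of the line.

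Myb (ENSMUSG00000019982, GRCm38 chromosome 10, 21124935 to 21160984, minus strand), a proto-oncogene of progenitor growth, was present in ES cells, nearly absent in mesoderm, and climbed through blood. ES libraries held 7.402, 7.34 and 11.95 TPM and mesoderm 0.051, 0.316 and 0.123 TPM. Myb fell by 5.47 ± 0.44 on the log2 scale (SE; edgeR adjusted p = 4.34e-06), and by 6.21 without the mesoderm library of RB3. In eHB it was 12.2 TPM in RB3.6.5, 3.64 in RB4.6.9, 10.6 in M5, 9.70 in FL4 and 6.29 in FL10, all above mesoderm, a rise of 5.43 ± 0.70 (SE; edgeR adjusted p = 0.000626), or 6.20 without the same mesoderm library.

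Myb differed between the endothelial and the blood progeny. Endothelial libraries held 0.686 TPM in RB3.6.5, 0.108 in RB4.6.9, 4.86 in FL4, 0.229 in FL10 and 2.13 in M5, each below its own eHB line. The log2 change was -2.39 ± 0.89 (SE; edgeR adjusted p = 0.0339), a call lost in 6 of 10 fits that left out 1 library (adjusted p 0.0542 to 0.0762, leaving out eHB RB3.6.5, M5 or FL4 or endothelial RB3.6.5, M5 or FL10). Without the endothelial library of FL4 it was -3.39 (adjusted p = 0.00639). Day 2 blood held 10.3 TPM in M5, 33.4 in FL4, 97.1 in FL10, 26.8 in RB3.6.5 and 33.1 in RB4.6.9. All lines but M5 were above their eHB culture, and Myb rose by 2.80 ± 0.50 (SE; edgeR adjusted p = 0.00127).

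Day 3 blood held 131.7 TPM of Myb in M5, 120.2 in FL4, 132.6 in FL10, 30.8 in RB3.6.5 and 132.1 in RB4.6.9. The other lines were nearly equal and RB3.6.5 was low, the line with a day 3 erythroid sum of 14767 TPM and a Ptprc level of 16.4 TPM, the lowest of the group. Against endothelium the difference was 6.44 ± 1.01 (SE; edgeR adjusted p = 0.000334), and 7.47 (adjusted p = 0.000195) without the endothelial library of FL4. Every line was higher on day 3 than on day 2, with a log2 value of 1.39 ± 0.47 (SE; edgeR adjusted p = 0.0888). DESeq2 called that value (1.38, adjusted p = 0.0249), as did edgeR without the day 3 library of RB3.6.5 (1.59, adjusted p = 0.0392) or the day 2 library of FL10 (1.88, adjusted p = 0.0252). Against its relatives, of which the cell-cycle gene Mybl2 was the main one in ES cells, Myb was 1.49% to 2.43% of the Myb, Mybl1 and Mybl2 TPM in ES cells, 5.03% to 18.5% in eHB, 39.3% to 68.8% in day 2 blood and 69.1% to 80.3% in day 3 blood.

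Lyl1 (ENSMUSG00000034041, GRCm38 chromosome 8, 84701457 to 84704715, plus strand) lies whole within the bounds of Nfix on the opposite strand, and whether the authors' counting used strand is not given in the sources used here. It was at 0.456 TPM or less in all ES and mesoderm libraries. In eHB it was 77.9 TPM in RB3.6.5, 16.04 in RB4.6.9, 29.4 in M5, 117.7 in FL4 and 105.2 in FL10. Lyl1 was above mesoderm in all 5, by 7.74 ± 0.94 on the log2 scale (SE; edgeR adjusted p = 0.000469). It stayed at 32.3 to 72.8 TPM in endothelium (log2 value -0.35, edgeR adjusted p = 0.549) and was at 163.1 to 281.9 TPM in day 2 blood, above all eHB libraries. That rise was 2.32 ± 0.49 (SE; edgeR adjusted p = 0.00307). Day 3 blood held 101.7 to 255.1 TPM, 2.23 ± 0.35 above endothelium (SE; edgeR adjusted p = 0.000361), and each line was lower on day 3 than on day 2 by an amount that did not pass (log2 value -0.30, edgeR adjusted p = 0.562).

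Cbfa2t3 (ENSMUSG00000006362, GRCm38 chromosome 8, 122625141 to 122699109, minus strand) encodes the corepressor Eto2 of the Tal1 complex. In the edgeR fits with all libraries it was the one gene of the 10 called higher at each of 3 steps: into eHB, from eHB into endothelium and from eHB into blood. Its level was 0.356 TPM or less in ES cells and mesoderm. In eHB it was 10.8 TPM in RB3.6.5, 5.96 in RB4.6.9, 14.4 in M5, 26.3 in FL4 and 12.3 in FL10. It rose by 6.21 ± 0.98 on the log2 scale (SE; edgeR adjusted p = 0.0015), and by 7.86 (adjusted p = 0.00183) without the mesoderm library of RB2. Endothelial libraries held 30.6, 25.5, 38.2, 53.7 and 58.4 TPM in RB3.6.5, RB4.6.9, FL4, FL10 and M5, higher in every line, by 1.62 ± 0.39 (SE; edgeR adjusted p = 0.00379). Day 2 blood held 63.2 to 90.6 TPM, above all eHB and endothelial libraries, by 3.30 ± 0.37 over eHB (SE; edgeR adjusted p = 0.000141). Day 3 blood held 61.6 to 112.6 TPM, 1.56 ± 0.23 above endothelium (SE; edgeR adjusted p = 0.000237).

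The family balance moved as well. Cbfa2t2, a related corepressor gene, made up nearly all of the family's TPM in ES cells, where Cbfa2t3 was 0.0498% to 0.354% of the Cbfa2t3, Cbfa2t2 and Runx1t1 sum. The share of Cbfa2t3 was 25.7% to 61.3% in eHB, 67.6% to 85.4% in endothelium, 86.3% to 93.0% in day 2 blood and 90.1% to 92.5% in day 3 blood. Cbfa2t2 fell by 2.30 ± 0.10 from ES cells to mesoderm (SE; edgeR adjusted p = 9.92e-08).

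Ldb1 (ENSMUSG00000025223, GRCm38 chromosome 19, 46031570 to 46045214, minus strand), the adaptor that dimerises the complex, was abundant everywhere and overlaps Pprc1 on the opposite strand by 329 bases. ES libraries held 226.0 to 261.6 TPM, mesoderm 110.6 to 141.3, eHB 149.4 to 221.7 and endothelium 215.5 to 329.2 TPM. Mesoderm was below every library of the other groups except the day 3 blood libraries of M5 (139.5 TPM) and RB3.6.5 (141.2 TPM). From mesoderm to eHB the log2 change of Ldb1 was 0.215 ± 0.177 (SE; edgeR adjusted p = 0.344). Limma on log2(TPM + 1), a scale where the median gene moved by 0.27, gave 0.50 (adjusted p = 0.0278). Ldb1 fell by 0.57 ± 0.10 on the log2 scale from ES cells to mesoderm (SE; edgeR adjusted p = 0.00047) and rose by 0.61 ± 0.17 from eHB to endothelium, in 5 of 5 lines (SE; edgeR adjusted p = 0.0101). With all groups in one fit the fall into mesoderm did not pass (-0.46, edgeR adjusted p = 0.0666). In day 2 blood it was 207.4 to 264.3 TPM, higher in 5 of 5 lines than in eHB, with 1.03 ± 0.17 by edgeR (SE; adjusted p = 0.00101). The ranges overlapped, and in TPM FL4 (213.7 to 214.3) and M5 (221.7 to 232.1) hardly moved. Limma on log2(TPM + 1), a scale where the median gene moved by -0.56, gave 0.36 (adjusted p = 0.0518).

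Hhex (ENSMUSG00000024986, GRCm38 chromosome 19, 37434810 to 37440731, plus strand) changed at the steps into mesoderm and eHB and, in the edgeR fits with all libraries, passed in no contrast after them. ES libraries held 4.29 to 5.82 TPM and mesoderm 2.08 to 2.83 TPM, a fall of 0.72 ± 0.19 on the log2 scale (SE; edgeR adjusted p = 0.00758). With all groups in one fit Hhex did not pass there (-0.61, edgeR adjusted p = 0.189). In eHB Hhex was 77.8 TPM in RB3.6.5, 19.2 in RB4.6.9, 76.2 in M5, 75.8 in FL4 and 46.4 in FL10. All 5 lay above ES cells and mesoderm, and the rise was 4.33 ± 0.51 (SE; edgeR adjusted p = 0.000431). Endothelium held 47.1 to 85.4 TPM and day 2 blood 14.46 to 47.6 TPM. Hhex was lower in day 2 blood than in endothelium in 5 of 5 lines (log2 value -0.59 ± 0.27 SE, edgeR adjusted p = 0.0735), and day 3 blood, at 27.8 to 59.5 TPM, overlapped both. Limma on log2(TPM + 1) called the day 2 difference (-1.12, adjusted p = 0.0102), on a scale where the median gene moved by -0.43. The edgeR test called it without the endothelial library of RB3.6.5 (-0.70, adjusted p = 0.048) or of M5 (-0.70, adjusted p = 0.0477). Without the same libraries Hhex was also called higher in cultured than in embryo endothelium (0.79 in both fits, edgeR adjusted p = 0.0461 and 0.0379).

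Ikzf1 (ENSMUSG00000018654, GRCm38 chromosome 11, 11685003 to 11772926, plus strand) was at 0.163 TPM or less in ES cells and mesoderm. The eHB lines held 37.1 TPM in RB3.6.5, 1.74 in RB4.6.9, 22.8 in M5, 39.3 in FL4 and 21.6 in FL10. Ikzf1 rose by 8.82 ± 1.26 from mesoderm on the log2 scale (SE; edgeR adjusted p = 0.000966), and RB4.6.9 was again the lowest line, as for Runx1, Gfi1b, Myb, Lyl1, Hhex and Cbfa2t3. In endothelium it was 3.89 TPM in RB3.6.5, 0.097 in RB4.6.9, 11.9 in FL4, 4.596 in FL10 and 15.98 in M5. Each line was lower than in eHB; the edgeR value was -1.72 ± 1.01 (SE; adjusted p = 0.151), and blocking on the line gave -2.23 (adjusted p = 0.00653).

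Day 2 blood held 13.7 TPM of Ikzf1 in M5, 60.2 in FL4, 78.7 in FL10, 29.98 in RB3.6.5 and 6.30 in RB4.6.9. Of the 5 lines, 3 were above and 2 below their eHB culture, with 1.27 ± 0.79 by edgeR (SE; adjusted p = 0.192) and 1.33 with the block (adjusted p = 0.0198). Against endothelium Ikzf1 was higher by 2.89 ± 1.04 (SE; edgeR adjusted p = 0.0312), a call lost in 4 of 10 fits that left out 1 library (adjusted p 0.0619 to 0.0685, leaving out day 2 FL4 or FL10 or endothelial RB3.6.5 or FL10). Without both day 2 M5 and FL4 it was 2.77 (adjusted p = 0.071). Day 3 blood held 90.5 TPM in M5, 97.6 in FL4, 86.2 in FL10, 22.2 in RB3.6.5 and 63.5 in RB4.6.9. It exceeded endothelium in 5 of 5 lines, by 3.65 ± 0.93 (SE; edgeR adjusted p = 0.0061), and RB3.6.5 was again low.

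Blood genes known to be bound by Runx1 or to need it, 10 in the list used here, were also followed. From eHB to day 2 blood 7 of the 10 were tested and all 7 rose, with a median log2 change of 9.03 over the 7 against 0.01 over all genes tested, of which 54.1% were called. Markers of blood lineages rose in the same contrast. Of those tested, 9 of 10 leukocyte, 10 of 11 erythroid, 8 of 8 megakaryocyte and 4 of 4 neutrophil markers rose. In eHB 2 of the 10 listed genes had a mean of 1 TPM or more, against 8 in day 2 blood. A gene near 0 in eHB passes the filter on low counts only through blood and can hardly be called lower. Little is therefore read from all 7 rising or from their median, and the same limit holds wherever 1 group lay near 0. Without the day 2 libraries of M5 and FL4 the list again gave 7 higher. Pf4 and Itga2b of this list are also among the megakaryocyte markers whose sum was highest in M5 on day 2, and Mpo and Elane are among the neutrophil markers. The genes that rose included Pf4, a platelet chemokine (11.53 ± 2.40 SE, edgeR adjusted p = 0.00293), Nfe2, a megakaryocyte and erythroid factor (9.92), and Csf2rb, a receptor chain for IL-3 (9.03). From day 2 to day 3, where Runx1 itself did not pass, all 10 were tested, with a median of 1.69 against -0.05 over all genes, and 5 rose where 10.2% of all genes were called: the neutrophil protease gene Elane (7.76), the granulocyte factor Cebpe (6.23), the macrophage receptor Csf1r (6.13), Mpo (4.73) and Spi1, which encodes PU.1 (2.63 ± 0.34 SE, edgeR adjusted p = 0.00192). Leukocyte markers rose with them, 9 of 12 tested, as did 7 of 8 neutrophil and 5 of 7 macrophage markers tested. Summed neutrophil markers lay at 32.6 to 135.6 TPM on day 2 and 1392 to 27320 TPM on day 3, and macrophage markers at 3.66 to 10.6 and 104.5 to 419.6 TPM. Their part in the list's count was not tested. Without the day 3 library of M5 the same 5 genes passed, with a median of 1.50 over the list. In endothelium against eHB, where Runx1 also rose and 70.0% of all genes were called, 4 were tested and Csf2rb (6.72), Pf4 (6.49) and Nfe2 (4.08) rose. From mesoderm to eHB, where Runx1 fell and 46.6% of all genes were called, 4 were tested and Itga2b (CD41) alone rose (4.90).

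Partners of Tal1 and Ldb1 moved in both directions. Reads of Tal1, Lmo2 and Gata2 could be shared between the endogenous and the ectopic row, so their values, and the counts that include them, are uncertain in every contrast with eHB or its progeny. Of 12 listed, 4 rose and none fell from eHB to day 2 blood, below the 54.1% of all genes called there, with a median of 0.21 against 0.01 over all genes: Gata1, the erythroid and megakaryocyte factor (6.34), Lmo2 (2.81), the Ldb1 stabiliser Ssbp2 (2.71) and Tal1 (1.24). In day 3 blood against endothelium, with 61.3% of all genes called, 5 rose and 5 fell, with Gata1 higher (4.602) and the E protein gene Tcf4 (-4.00) and the Ets gene Erg (-2.71) lower. From mesoderm to eHB, with 46.6% called, 6 rose, led by Erg (9.31), Tal1 (8.17), Fli1 (5.26) and Gata2 (3.23), and 1 fell. Tal1 and Gata2 are among the ectopic regulators, and eHB were grown with doxycycline. None of the 12 passed between the blood days with edgeR.

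Subunits of CoREST, the corepressor that Gfi1 and Gfi1b recruit, also moved in both directions. All 11 were tested throughout. From eHB to day 2 blood, where 54.1% of all genes were called, 3 rose and 5 fell with a median log2 change of -0.56 against 0.01 over all genes; the subunit gene Gse1 rose (1.203) and Zmym2 (-1.11), Hdac2 (-0.82) and Rcor3 (-0.62) fell. Kdm1a did not pass there, and fell by 0.62 ± 0.08 from eHB to endothelium (SE; edgeR adjusted p = 5.75e-05). The other family members of the 10 genes, 12 in all, gave 6 higher and 2 lower among 11 tested in day 3 blood against endothelium, against 61.3% of all genes called; Ldb2 was lower there (-8.01) and Ikzf2, which encodes Helios, was higher (4.76).

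The single HSC library had no replicate, so its values are descriptions. It lay within the range of the 5 day 3 blood libraries for Runx1 (61.1 TPM), Lyl1 (185.0 TPM) and Cbfa2t3 (81.4 TPM). It lay above that range for Gfi1 (163.1 TPM, 23.7 times the blood mean), Myb (345.6 TPM, 3.16 times), Cbfb (126.9 TPM, 2.69 times), Hhex (104.6 TPM, 2.33 times), Ikzf1 (137.8 TPM, 1.91 times) and Ldb1 (293.8 TPM, 1.54 times). Gfi1b alone lay below, at 28.1 TPM, the blood mean being 2.72 times higher. On the log2(TPM + 1) scale the gaps were 4.57 for Gfi1, 1.82 for Myb and -1.24 for Gfi1b.

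**Figure D5:**
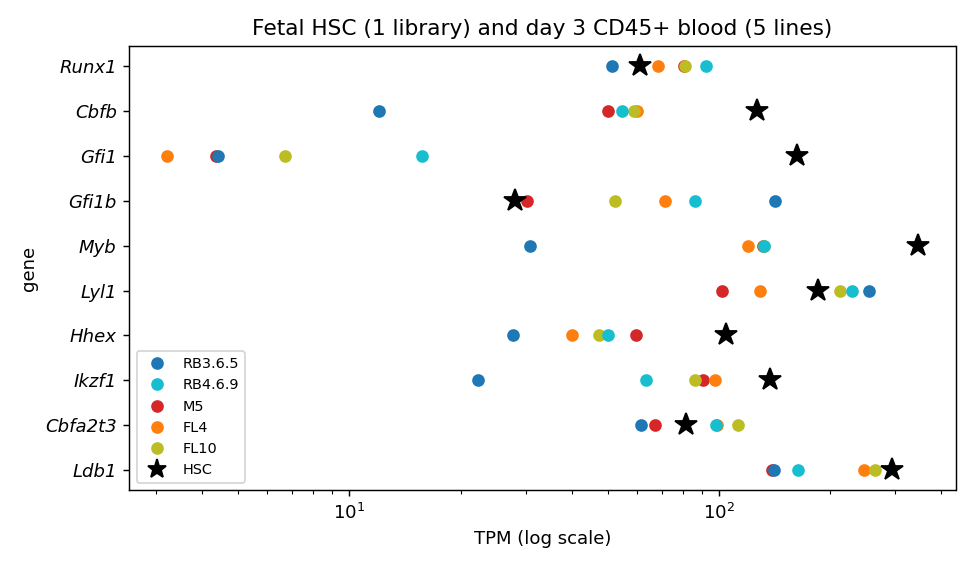
TPM of the 10 genes on a log axis in the 5 day 3 blood libraries (dots) and the HSC library (star). The star lies among the dots for Runx1, Lyl1 and Cbfa2t3, below them for Gfi1b, and above them for the other 6 genes, furthest for Gfi1 (163.1 TPM against 3.21 to 15.8).

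In primary endothelium Runx1 was higher in the yolk sac. It was 4.38 and 4.43 TPM there and 0.753 and 1.51 TPM in the embryo. The groups did not overlap, and Runx1 was higher by 1.98 ± 0.31 on the log2 scale (SE; edgeR adjusted p = 0.00115), in a contrast that called 24.4% of all genes. Gfi1 was 1.98 and 2.85 TPM in yolk sac and 0.464 and 0.981 TPM in the embryo, higher by 1.77 ± 0.51 (SE; edgeR adjusted p = 0.0297), and Cbfa2t3 was 57.1 and 38.2 against 18.7 and 34.3 TPM, higher by 0.86 ± 0.24 (SE; edgeR adjusted p = 0.024). These 3 of the 10 passed, and neither Gfi1 nor Cbfa2t3 passed in 2 of the 4 fits that left out 1 library. Gfi1 was lost without the first embryo library (adjusted p = 0.097) or the second yolk sac library (0.200), and Cbfa2t3 without the first embryo library (0.0634) or the first yolk sac library (0.162). With all groups in one fit none of the 3 passed. Gfi1b was 6.43 and 4.85 TPM in yolk sac and 1.495 and 7.96 TPM in the embryo, overlapping, and without the second embryo library it was called (log2 value 1.77, edgeR adjusted p = 0.014), as were Myb (2.21) and Ikzf1 (1.64). The embryo libraries, in the same order, had erythroid marker sums of 2641 and 32994 TPM, and macrophage markers summed to 763.7 to 814.7 TPM in yolk sac against 251.0 to 390.8 in the embryo; visceral endoderm and liver markers were also higher in yolk sac, for 6 of 7 listed genes. Fibroblast markers summed to 1144 to 1191 TPM in yolk sac and 39.0 to 59.9 in the embryo, with 5 of 8 higher and 1 lower. Of the leukocyte markers 7 of 12 were higher and 2 lower, and of the megakaryocyte markers 5 of 11 were higher and 1 lower. Their part was not tested. Ldb2 was 207.6 and 227.0 TPM in yolk sac and 93.4 and 108.9 in the embryo, so Ldb1 was 54.6% to 56.9% and 73.8% to 75.4% of the pair, against 84.3% or more in every cultured library.

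Cultured endothelium was also set against embryo endothelium, a contrast that called 45.4% of all genes. Runx1 was higher in culture by 3.34 ± 0.84 on the log2 scale (SE; edgeR adjusted p = 0.0155) and Gfi1 lower by the log2 value -1.94 ± 0.62 (SE; edgeR adjusted p = 0.0355), 2 of the 10. All 5 cultured libraries were above both embryo libraries for Runx1 and below both for Gfi1. The Runx1 call was lost without either embryo library (adjusted p 0.0728 and 0.1155) and the Gfi1 call in 4 of 7 such fits (0.0574 to 0.2235, leaving out either embryo library or cultured RB3.6.5 or RB4.6.9). Markers of other cells were lower in culture as well: 8 of 10 macrophage markers, with sums of 13.3 to 29.7 TPM against 251.0 to 390.8 in the embryo, 8 of 12 leukocyte markers (64.2 to 230.5 against 505.2 to 631.7 TPM) and 7 of 8 fibroblast markers (0.366 to 4.06 against 39.0 to 59.9 TPM). Of 6 neutrophil markers tested 3 were lower. Their part in the Gfi1 value was not tested.

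Among eHB lines, 11.8% of genes differed between the 3 tissue-derived and the 2 ES-derived lines, and Runx1 was the 1 gene of the 10 that passed. It was 2.49 to 4.83 TPM in M5, FL4 and FL10 and 0.243 to 0.406 TPM in RB3.6.5 and RB4.6.9, a log2 difference of 3.49 ± 0.46 (SE; edgeR adjusted p = 0.0277). The call was lost in each of the 5 fits that left out 1 line (adjusted p 0.0543 to 0.132). The medium differed with the origin. DESeq2 also called Gfi1b, Cbfa2t3 and Ldb1 higher in the tissue-derived lines (2.74, 1.15 and 0.52).

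The genes whose levels most resembled each member were taken by Pearson r of log2(TPM + 1) over the 31 libraries, which share lines and stages, from 11231 genes that reached 10 TPM in 2 or more libraries. For Runx1 they were Syne3 (r = 0.915), Rab37 (0.914) and Slc35d3 (0.896). For Gfi1b they were Grap2 (0.927), Hemgn (0.922) and Gata1 (0.922), and for Gfi1 Eya2 (0.935), Angpt1 (0.915) and Ikzf2 (0.888). Myb was most like Plcg2 (0.931), Ap1g2 (0.929) and Phldb3 (0.921), and Ikzf1 like Uba7 (0.884), Csk (0.884) and Slc35c1 (0.872). Lyl1 was most like Tal1 (0.948, its endogenous row), Gypc (0.939) and Blvra (0.931), Cbfa2t3 like Fam212a (0.939), Ogfod2 (0.936) and Il4ra (0.931), and Hhex like Mbd1 (0.933), Mtmr1 (0.921) and Fli1 (0.918). Cbfb was most like Fam168b (0.960), Papd4 (0.955) and Dnaja1 (0.934), and Ldb1 had no near neighbour, with Tmc6 (0.787), Lemd2 (0.785) and Brf1 (0.781). Ranking by Spearman's rho kept 1 of the 3 for Runx1 and Gfi1b and none for Cbfb, Gfi1, Lyl1, Hhex, Cbfa2t3 and Ldb1. Among the 10 genes themselves the closest pair over these libraries was Lyl1 with Cbfa2t3 (r = 0.96), followed by Lyl1 with Hhex and Gfi1b with Ikzf1 (both 0.83). Runx1 had 0.71 with Gfi1b, 0.63 with Gfi1 and -0.51 with Cbfb.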

How the data were processed

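The 31 libraries (TruSeq RNA kit, Illumina sequencing, per the labels' protocols) were compared in the groups their titles give. The authors deposited 1 table of expected counts and 1 of TPM per gene. The submitters' processing notes name CASAVA 1.8.2, Bowtie 0.12.9, RSEM 1.2.3 and mm10, the build of GRCm38. Their order, the annotation and any use of strand are not given in the sources used here. The TPM values were renormalised by the authors in a way the files do not describe. Expected counts, as deposited, were rounded to whole numbers. They were tested with edgeR 4.0.16 in R 4.3.3 (TMM scaling, its filter on low counts, quasi-likelihood F test, only the 2 groups compared in a fit, Benjamini-Hochberg over all genes tested, threshold 0.05). TPM served for levels, ratios and likeness, with a pseudocount of 1 where logged. Alternatives were DESeq2 1.42.0, DESeq2 size factors in edgeR, no filter, limma 3.58.1 on log2(TPM + 1) and log2(TPM + 0.1), all groups in one fit, the cell line as a block, and leaving out each library in turn. Leaving out the libraries that stood apart for erythroid markers, and recounting the Runx1-dependent list without libraries that stood apart, were chosen after seeing the data. The count test was tested on simulated data.

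The 10 members and the gene lists were chosen with earlier results of these data known. Of each list, up to 4 called genes with the largest log2 fold change in a comparison could be named, along with the sorting markers and the 3 genes most like each member. Libraries of a line were paired by origin. Their deviations from the group means correlated in every pair at 0.125 to 0.663 over the 5 contrasts among eHB, endothelium and blood, and at -0.06 to 0.05 between ES cells and mesoderm. Promoter windows are from RefSeq (GRCm38.p6), with 10 of 10 members matched. Gene positions are from GENCODE on GRCm38. Depth limits low genes: Gfi1 in eHB and endothelium rests on few reads. Tables were read with Python 3.11.15 and pandas 2.3.3.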

Additional observations from a re-analysis of the deposited data

Results flagged for a closer look

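Single libraries lay far from the other 4 of their group in 6 of 40 gene and group combinations, by the gap to the nearest library as a share of the range (Dixon's 95% limit); chance flags about 1 in 20. Cbfb was low in the endothelial library of M5 (74.34 TPM) and in the day 3 blood library of RB3.6.5 (12.07 TPM). Gfi1b was high in the endothelial library of M5 (11.88 TPM). Gfi1 was high in the day 3 blood library of RB4.6.9 (15.76 TPM). Myb was high in the day 2 blood library of FL10 (97.14 TPM) and low in the day 3 blood library of RB3.6.5 (30.83 TPM). The endothelial library of M5 and the day 3 blood library of RB3.6.5, which account for 4 of the 6, had the highest erythroid and megakaryocyte marker sums of their groups; the part of those cells in the values was not tested.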

How the results depend on the processing

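Of 1370 values under the alternatives, 1244 kept direction and side of the threshold, 56 no longer passed, 44 newly passed and 26 changed sign; each sign change was of a gene that had not passed, and the cause was not tested. The number of the 10 genes called moved as follows. With all groups in one fit it was 2 for mesoderm against ES cells (4 in the report), 1 for day 3 against day 2 blood (0), 1 for cultured against embryo endothelium (2) and 0 for yolk sac against embryo endothelium (3). Those lost for mesoderm against ES cells were Hhex and Ldb1. DESeq2 called 1 between the blood days and 4 between tissue-derived and ES-derived eHB (1). Limma on log2(TPM + 0.1) called 1 between yolk sac and embryo. Without the erythroid-rich day 2 libraries of M5 and FL4 and the day 3 library of RB3.6.5, 1 gene (Gfi1b, -1.29, adjusted p = 0.0463) was called between the blood days. Leaving out 1 library at a time gave 2 to 4 genes for endothelium against eHB (5), 0 to 2 between the blood days, 0 to 3 for cultured against embryo endothelium, 1 to 6 for yolk sac against embryo, and 0 to 0 for eHB origin.

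Signs changed in these cases. Cbfb, mesoderm against ES cells, was 0.024 with all groups in one fit and -0.23 to 0.064 leaving out 1 library. Gfi1 between the blood days was 0.18 and 0.92 by limma on log2(TPM + 1) and log2(TPM + 0.1), and -1.23 to 0.20 leaving out 1 library. Ldb1, day 2 blood against endothelium, was -0.22 by limma at both pseudocounts. Ikzf1, cultured against embryo endothelium, was -0.13 by limma with 0.1. Hhex between yolk sac and embryo was 0.024 and 0.025 by limma and -0.070 to 0.0084 leaving out 1 library. By limma, eHB origin gave -0.049 at both pseudocounts for Cbfb and -0.0080 with 0.1 for Gfi1. Leaving out 1 library also gave -0.015 to 0.35 for Hhex in endothelium against eHB, -0.060 to 0.14 for Cbfa2t3 between the blood days, -2.18 to 1.03 for Gfi1b in cultured against embryo endothelium, and -0.43 to 1.77 for Gfi1b between yolk sac and embryo. For eHB origin it gave -0.15 to 0.20 for Cbfb, -0.36 to 1.33 for Myb, -0.13 to 1.83 for Hhex and -0.31 to 4.05 for Ikzf1.

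With the cell line as a replicate block, Gfi1 between the blood days was 0.48, 6 genes were called for endothelium against eHB and 7 for day 2 blood against eHB; beyond the calls given in the report for Cbfb, Gfi1b and Ikzf1 the pairing changed no other call. Where 1 of 2 primary libraries was left out, the lone one was assumed to vary like the other group.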
